A study of Mus musculus with 2 samples.

Results

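The major histocompatibility complex (MHC) genes and the genes that feed them with peptides were compared between control and *Drp1*LiKO mouse primary hepatocytes. The members were every gene name on the array that begins with H2-, together with *B2m*, *Tap1*, *Tap2*, *Tapbp*, *Nlrc5*, *Ciita*, *Cd74*, *Psmb8*, *Psmb9*, *Psmb10*, *Psme1*, *Psme2* and *Erap1*, with all their probes. They came to 54 genes with 91 probes, of 37071 gene names with 56600 probes on the array. No probe carried the name *Psme2*. MHC class I molecules are made of a heavy chain and the light chain beta-2 microglobulin, and show peptides from inside the cell to CD8+ T cells and NK cells. The peptides are cut by the proteasome, carried into the endoplasmic reticulum by the TAP transporter and loaded with the help of tapasin. Class II molecules are made of an alpha and a beta chain, travel with the invariant chain CD74 and show peptides taken up from outside, and are mainly a feature of macrophages, dendritic cells and B cells. Hepatocytes carry class I, and interferons raise it in most cells.

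The control mice carried *Drp1*flox/flox and the knockout mice *Alb-Cre*Tg/+ *Drp1*flox/flox, in which the albumin promoter drives Cre recombinase in hepatocytes, and both groups shared the floxed alleles and, by the labels, a C57BL/6 background. The labels call the control wild type. Neither the age of these mice nor the number of mice behind each RNA is stated for the arrays. Cells were harvested 24 h after seeding, with no lipopolysaccharide or other treatment named in the labels, and each genotype had 1 array, labeled with Cy3. Without replicates no test was possible, and the values that follow compare 2 arrays and no more.

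The share of probes well above background was 48.2% on the control array and 52.1% on the *Drp1*LiKO array. The signals printed here are the processed signals of each array, a linear intensity with the background subtracted. The log2 ratios of *Drp1*LiKO over control were taken after each array was divided by its own 75th percentile, 313.4 for the control array and 355.6 for the *Drp1*LiKO array, so a ratio is smaller than the printed signals alone would give. Probes bind with different strength, so signals were compared between arrays and never as levels between genes. The error beside a ratio is the noise between spots of an array, and leaves out the spread between mice or cultures, which these arrays cannot give. The targeted gene, listed as *Dnm1l*, read 2602 on the control array and 1217 on the knockout array (log2 ratio -1.28), though whether this probe lies in the deleted part is not stated. All 10 hepatocyte markers were detected, and their log2 ratios had a median of -0.03, with 5 above 0 and 3 at least 1.5-fold higher, *Ahsg* at 1.83, *Tat* at 1.28 and *Cps1* at 0.65, and none as far lower. Markers of other liver cells differed between the arrays. By their brightest probes, 12 of 13 detected Kupffer cell and macrophage markers were higher in *Drp1*LiKO cells, against 44.5% of all detected genes. Of those measured on both arrays, 9 of 10 were higher, against 43.6% of all such genes. The summed signal of the 14 listed genes went from 8854 to 24410. All 10 sinusoidal endothelial markers were higher by their brightest probes as well, with a summed signal of 4518 against 9531. Only 8 of them were measured on both arrays, since *Lyve1* and *Tek* were well above background in *Drp1*LiKO cells alone. Other detected probes of *Csf1r* and *Stab2* were at -0.017 and -0.245. The sums add unscaled signals of unlike probes, so they do not measure cell content. Bright probes weigh heavily in them, such as those of *Itgam* (4132 and 3869), *Cd68* (2346 and 9593) and *Egfl7* (3773 and 6941). In such bulk samples, more cells of a type and more RNA per cell cannot be told apart.

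Of the 54 member genes, 41 were well above background on at least 1 array, and 33 of these had a log2 ratio above 0 against 44.5% of all detected genes. 7 were below 0, and *Ciita* gave no direction. At least 1.5-fold higher in *Drp1*LiKO cells were 17 member genes, against 10.3% of all detected genes, and 1 was at least 1.5-fold lower, against 10.2%. The median log2 ratio of the detected members was 0.52, and that of all 20165 detected genes was -0.05. A gene detected only on the array where it is brighter has to differ, so the 37 members well above background on both arrays were also counted alone. Of these, 31 had a ratio above 0 (43.6% of all genes measured on both arrays), 16 were at least 1.5-fold higher (8.43% of all) and none was as far lower, with a median of 0.53. By probe, 46 of 59 detected member probes had a ratio above 0 against 46.4% of all detected probes, and 25 were at least 1.5-fold higher against 10.4%. The study used a Z score of 2 as its criterion, but over which values it took the score is not given in the sources used here, so the genes counted here need not be those it selected. Taken over all detected probes, this equals a log2 ratio of 1.30 or more, and 4 member genes passed it as higher, *H2-T9*, *H2-T10*, *H2-T22* and *Cd74*, against 3.46% of all genes. No member gene had a Z score of -2 or less, against 2.76% of all genes. The count of higher genes at this threshold moved with the processing and the scaling of the Z score, between 2 and 14. The share of all genes was not counted under those other settings. Most member differences were below this threshold, and they varied between the parts of the pathway.

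**Figure D1:**
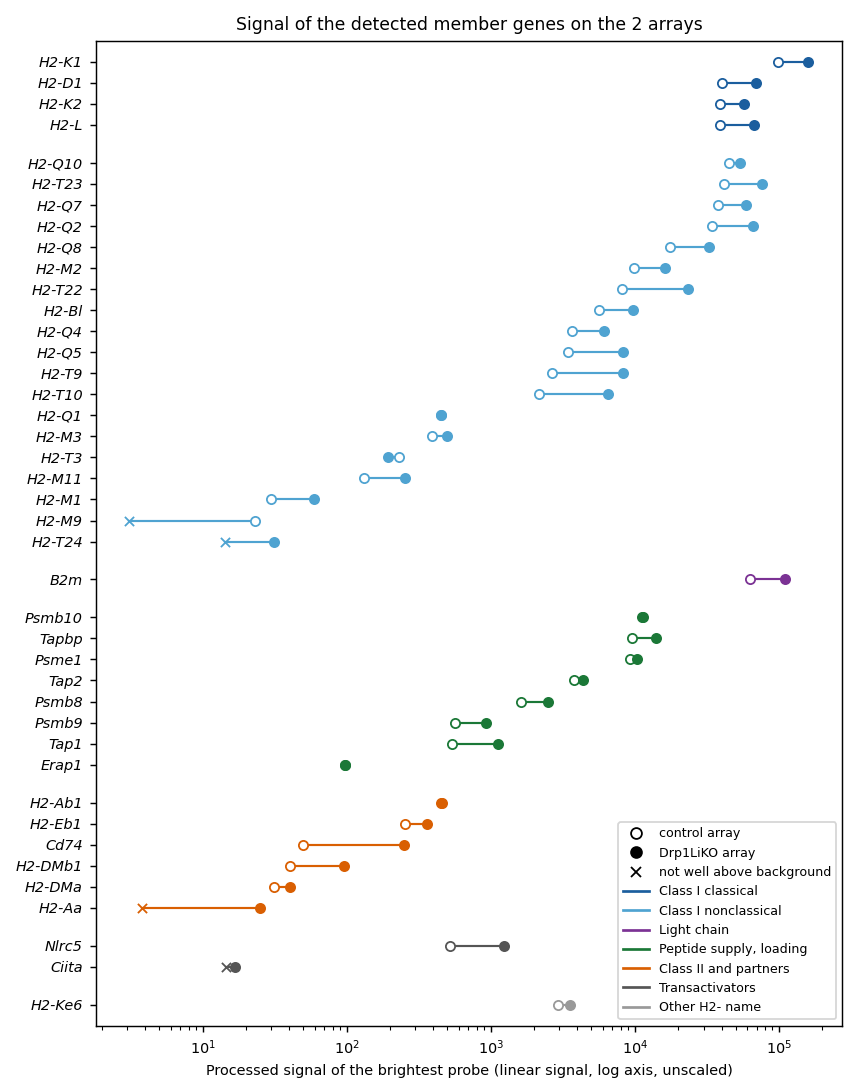
Processed signal of the brightest probe of each of the 41 detected member genes (log axis) on the control array (open circles) and the *Drp1*LiKO array (filled circles), grouped by role, with crosses where the signal was not well above background. Most filled circles lie to the right of the open ones, widely so for *Cd74*, *H2-T9*, *H2-T10* and *H2-T22*, while those of *Psmb10*, *Erap1*, *H2-Q1* and *H2-Ab1* cover the open ones.

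The probes of class I heavy chains are alike in sequence, and this bears on how many separate genes the array could tell apart. Probes of different class I genes that shared an unbroken run of at least 20 bases are shown here because they limit what each value can be credited to. Each is a 60-mer, written 5′ to 3′ as the array design gives it, and the capitals mark bases that lie in a run of 20 or more shared with another of the 4 probes.
H2-L: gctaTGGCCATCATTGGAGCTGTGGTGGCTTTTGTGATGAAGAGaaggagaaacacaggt
H2-K1: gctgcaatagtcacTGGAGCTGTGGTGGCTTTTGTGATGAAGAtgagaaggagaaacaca
H2-T23: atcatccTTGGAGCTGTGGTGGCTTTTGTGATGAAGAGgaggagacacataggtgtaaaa
H2-Q8: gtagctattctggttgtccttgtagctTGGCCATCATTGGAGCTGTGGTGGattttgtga
The H2-L and H2-K1 probes shared 29 bases without a break, the H2-K1 and H2-T23 probes also 29, the H2-L and H2-T23 probes 31, and the H2-L and H2-Q8 probes 24. In their best gapless alignment the H2-L and H2-T23 probes matched at 48 of 54 bases. On mm9 they lie on chromosome 17, at chr17:35403191-35403250 on the plus strand for *H2-L*, chr17:34133984-34134043 on the minus strand for *H2-K1*, chr17:36167338-36167574 on the minus strand for *H2-T23*, a stretch longer than the probe itself, and chr17:35565247-35565306 on the plus strand for *H2-Q8*. The array design also listed a second gene for 8 of the 59 detected member probes. Both *H2-L* probes list the *H2-D1* transcript, and C57BL/6 mice, of the b haplotype, have no separate *H2-L* gene. The 3 *H2-Q7* probes also list *H2-Q9*, the *H2-Q8* probe *H2-Q6*, the *H2-T9* probe *H2-T22*, and the dimmer *H2-T23* probe *H2-T-ps*. Values of these genes are therefore not certain to belong to 1 gene, and the class I counts overstate the number of independent measurements.

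The classical class I heavy chains, which present peptides to CD8+ T cells, were all moderately higher in *Drp1*LiKO cells. *H2-K1* read 99000 on the control array and 160400 on the knockout array (log2 ratio 0.51 ± 0.053). Its other probe, the one printed here, gave 32630 and 58440 (log2 ratio 0.66). *H2-D1* had a signal of 40510 and 68910, a log2 ratio of 0.58, or 1.499-fold. The *H2-L* probes, which read the same transcript, gave log2 ratios of 0.62 and 0.61, close to that of *H2-D1*. *H2-K2*, annotated with a noncoding transcript, had signals of 39120 and 57690 and the smallest log2 ratio of the 4 names, 0.38. The 6 probes lay between 0.38 and 0.66, each above its spot noise, and none passed the Z score of 2.

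*B2m*, the light chain shared by nearly all class I molecules, read 63030 on the control array and 110900 on the knockout array (log2 ratio 0.63 ± 0.053), within the range of the classical heavy chain probes. A second, far dimmer *B2m* probe gave 109.3 and 312.5 (log2 ratio 1.33 ± 0.146), so the probes of this gene differed in size and agreed only in direction.

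The nonclassical heavy chains of the Q, T and M series ranged more widely than the classical ones. Of 27 genes, 19 were detected, 16 of them with a ratio above 0 (44.5% of all detected genes). At least 1.5-fold higher were 11 (10.3% of all), and 1 was at least 1.5-fold lower (10.2% of all). On both arrays 17 were measured, and their log2 ratios had a median of 0.68, against 0.55 for the 4 classical names. The highest values were those of neighbors in the T region. *H2-T9* read 2663 on the control array and 8320 on the knockout array (log2 ratio 1.46 ± 0.082). *H2-T10* had 2153 and 6555 (log2 ratio 1.42). *H2-T22* had 8111 and 23560 (log2 ratio 1.36). *H2-T10* and *H2-T22* encode molecules that bind no peptide and are recognized by gamma delta T cells. The ratios of all 3 lay between 1.36 and 1.46. *H2-T23*, which encodes Qa-1, the ligand of an inhibitory receptor of NK cells, had 41680 and 75930 (log2 ratio 0.68). Its dimmer probe, which lists a pseudogene, had 151.2 and 370.6 (log2 ratio 1.11).

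In the Q region, *H2-Q5* was highest, with signals of 3430 and 8332 and a log2 ratio of 1.098. *H2-Q2* followed with 34070 and 66540 (log2 ratio 0.78), and *H2-Q8* with 17510 and 32870 (log2 ratio 0.73). *H2-Q4* had 3680 and 6157 (log2 ratio 0.56). *H2-Q7*, which with *H2-Q9* encodes the lipid-anchored Qa-2, gave log2 ratios from 0.47 for its brightest probe (37810 and 59390) to 0.95 for its dimmest (2670 and 5852). *H2-Q10* encodes a class I molecule that the liver secretes into the blood. Its brightest probe read 44900 on the control array and 53730 on the knockout array (log2 ratio 0.08 ± 0.053), a smaller ratio than that of *H2-Q2*, *H2-Q4*, *H2-Q5*, *H2-Q7* or *H2-Q8*. Its other 3 probes gave 0.17, 0.37 and 0.48, so its size depended on the probe and all 4 stayed under 1.5-fold. *H2-Q1* had 455.2 and 448.7 (log2 ratio -0.20).

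In the M series and beyond, *H2-M2* read 9894 on the control array and 16250 on the knockout array (log2 ratio 0.53). The other *H2-M2* probe was not well above background on either array (4.156 and 8.095). None of the 4 RefSeq accessions of the brighter probe was matched to a symbol, so its value is not certain to belong to *H2-M2*. *H2-M11* had 131.4 and 253.9 (log2 ratio 0.77), and *H2-M1* had 29.65 and 59.23 (log2 ratio 0.82 ± 0.311). *H2-M3*, which presents peptides that begin with formylmethionine, had 389.0 and 497.6 (log2 ratio 0.17). *H2-Bl* gave log2 ratios of 0.60 and 0.88 with its 2 probes. *H2-T24* was well above background only in *Drp1*LiKO cells (14.35 and 31.3), at least 1.51-fold higher with the control signal set to the floor of its array. Its log2 ratio, 0.60 ± 0.41, was 0.94 with no floor, 0.002 with normexp background correction and 0.0 in the deposited values. The other *H2-T24* probe was not well above background on either array. Lower values were few and dim: *H2-T3*, the thymus leukemia antigen, had 229.5 and 193.8 (log2 ratio -0.43 ± 0.174), and a dimmer probe of the same gene had 48.7 in control and was not well above background in *Drp1*LiKO cells, at least 3.69-fold lower. *H2-M9* had 23.08 in control and was not well above background in *Drp1*LiKO cells, at least 1.75-fold lower by such a floor. Its log2 ratio, -0.81 ± 0.41, was -3.08 with no floor, -0.31 with normexp and -0.14 in the deposited values. Not well above background on either array were *H2-M10.1* to *H2-M10.6*, a family known from sensory neurons of the vomeronasal organ, *H2-M5* and *H2-T18*. *H2-Ke6*, which has an H2- name but encodes a hydroxysteroid dehydrogenase, gave log2 ratios of 0.10 and 0.35 with its 2 probes.

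**Figure D2:**
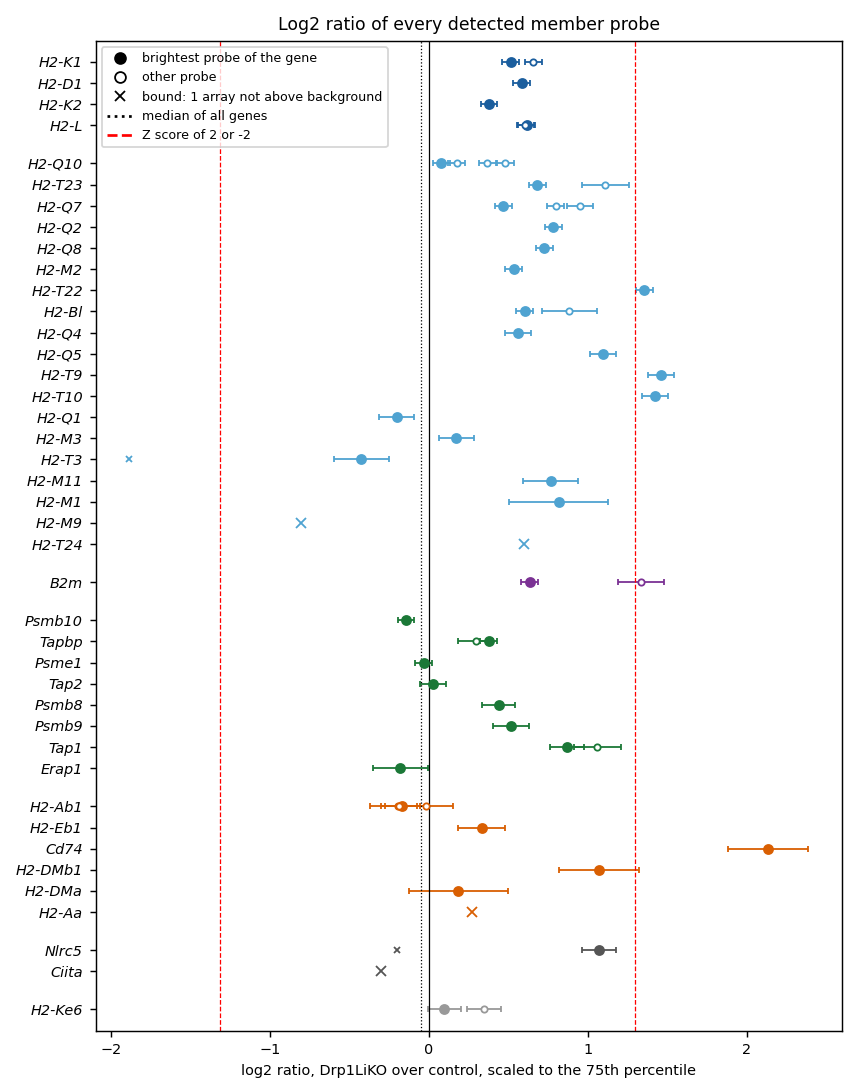
Log2 ratio of *Drp1*LiKO over control for each of the 59 detected member probes, with bars of ± 1 SD of spot noise, filled points for the brightest probe of a gene, open points for its other probes and crosses for bounds. Most class I probes lie between 0.38 and 1.46, those of *H2-Ab1*, *Psme1* and *Tap2* near 0, and the red lines mark the Z scores of 2 and -2.

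The promoters of some members are shown for the letters they share or lack. They are the 250 bases before the transcription start in RefSeq (GRCm38.p6), written 5′ to 3′ on the strand of the gene. Promoters were found for 38 of the 54 member genes. Capitals mark a match to GAAANNGAA, from the core of the interferon-stimulated response element, in *B2m* and, on the opposite strand, in *H2-T22*, or to GGGATTCCC, from the NF-kappaB site of the class I enhancer A, in *H2-K1* and *H2-D1*. *H2-Q10* holds neither of these exact patterns. It is shown because the log2 ratio of its brightest probe was the closest to 0 of the detected class I heavy chains. With the median of its probes the ratio was 0.271, and in the deposited values 0.318, farther from 0 than *H2-M3*. The windows of *H2-K1*, *H2-D1* and *H2-Q10* all hold tttcacttc, which neither pattern matches, and looser forms of these elements were not searched. For *H2-K1* the table gives more than 1 start, and the first is shown.
B2m: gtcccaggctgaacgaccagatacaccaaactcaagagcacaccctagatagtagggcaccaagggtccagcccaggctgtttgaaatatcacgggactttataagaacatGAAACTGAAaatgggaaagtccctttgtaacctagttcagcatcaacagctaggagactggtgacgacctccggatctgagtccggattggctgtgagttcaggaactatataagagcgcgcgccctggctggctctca
H2-T22: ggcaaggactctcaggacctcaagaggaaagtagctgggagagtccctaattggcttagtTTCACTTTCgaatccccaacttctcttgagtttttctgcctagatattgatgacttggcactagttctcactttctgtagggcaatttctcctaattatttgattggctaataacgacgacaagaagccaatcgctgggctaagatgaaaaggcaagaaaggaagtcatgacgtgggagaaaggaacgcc
H2-K1: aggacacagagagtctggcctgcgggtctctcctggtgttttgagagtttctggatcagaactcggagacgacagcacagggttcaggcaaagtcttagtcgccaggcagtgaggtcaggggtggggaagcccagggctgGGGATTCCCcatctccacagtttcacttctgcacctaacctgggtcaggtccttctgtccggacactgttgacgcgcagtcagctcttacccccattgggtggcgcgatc
H2-D1: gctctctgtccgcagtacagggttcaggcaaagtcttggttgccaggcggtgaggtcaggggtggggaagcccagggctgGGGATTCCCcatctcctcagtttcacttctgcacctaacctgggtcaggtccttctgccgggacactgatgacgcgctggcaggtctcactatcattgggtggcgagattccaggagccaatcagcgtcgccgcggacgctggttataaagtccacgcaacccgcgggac
H2-Q10: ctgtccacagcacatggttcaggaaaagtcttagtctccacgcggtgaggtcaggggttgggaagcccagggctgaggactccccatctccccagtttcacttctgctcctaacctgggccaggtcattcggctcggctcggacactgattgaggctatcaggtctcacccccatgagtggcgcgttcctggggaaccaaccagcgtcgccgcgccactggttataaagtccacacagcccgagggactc
These windows are chr2:122147437-122147686 on the plus strand, chr17:36042743-36042992 on the minus strand, chr17:34000348-34000597 on the minus strand, chr17:35262844-35263093 on the plus strand and chr17:35469839-35470088 on the plus strand. On either strand, GAAANNGAA was found upstream of 4 of 38 members (*B2m*, *H2-T22*, *H2-T23* and *Erap1*) and in 7.13% of all 32851 promoters of this length. GGGATTCCC was found upstream of *H2-D1*, *H2-K1* and *H2-Q7*, and in 0.301% of all promoters. CCAAT, the Y box shared by class I and class II promoters, was found in 31 of 38 member promoters, in all 8 of class II genes, and in 33.8% of all promoters. TGACG, a half-site for CREB-type factors, was found in 15 of 38 and in 17.8% of all, and TTCNNNGAA, the STAT palindrome, in 4 of 38 and in 7.02% of all. In none of the 38 did matches of different motifs share bases. Such matches describe the letters of these windows only. The promoters of *B2m* and *H2-T22* belong to genes with log2 ratios of 0.63 and 1.36, and those of *H2-K1* and *H2-D1* to genes at 0.51 and 0.58. *H2-T23* (0.683), *H2-Q7* (0.469) and *Erap1* (-0.179) also hold GAAANNGAA or GGGATTCCC. Genes with neither include *Tap1* (0.868), *H2-M1* (0.816) and *H2-Q2* (0.783), and also *H2-Q10* and *H2-T3* (-0.426). A link between matches and ratios was not tested.

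The genes that cut, carry and load peptides differed among themselves. Of 8 detected genes, 5 had a ratio above 0 (44.5% of all detected genes) and 1 was at least 1.5-fold higher (10.3% of all). Their median log2 ratio was 0.20. *Tap1*, a chain of the peptide transporter, read 538.6 on the control array and 1116 on the knockout array (log2 ratio 0.87 ± 0.107), and its other probe gave 1.06. *Tap2*, its partner chain, had 3766 and 4354 (log2 ratio 0.03 ± 0.082). The *Tap2* value did not hold in the deposited normalized table, where it was 3959 and 1819, a log2 ratio of -1.12. *Psmb9*, which lies head to head with *Tap1*, had 568.4 and 922.6 (log2 ratio 0.52). *Psmb8* had 1612 and 2483 (log2 ratio 0.44). *Psmb10*, the remaining catalytic subunit of the immunoproteasome, had 11140 and 11440 (log2 ratio -0.14). *Tapbp*, which encodes tapasin, had 9550 and 14080 (log2 ratio 0.38), with 0.30 for its other probe. *Psme1*, a subunit of the proteasome activator PA28, had 9260 and 10280 (log2 ratio -0.03), and *Erap1*, which trims peptides in the endoplasmic reticulum, had 96.65 and 96.92 (log2 ratio -0.18 ± 0.174).

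The constitutive counterparts of the immunoproteasome subunits stayed close to 0. *Psmb5*, the counterpart of *Psmb8*, had a log2 ratio of -0.14, *Psmb6*, that of *Psmb9*, -0.19, and *Psmb7*, that of *Psmb10*, -0.13. They belong to a list of 14 class I pathway genes outside the members, with chaperones such as *Calr* and *Canx*, that were all detected on both arrays. In this list 4 had a ratio above 0 and none was 1.5-fold higher or lower, with a median of -0.13 and a range from -0.53 for *Sec61a1* to 0.10 for *Calr*. Of 9 class I related molecules encoded elsewhere, such as *Cd1d1*, *Mr1* and *Fcgrt*, 5 were above 0, with a median of 0.08. *Ulbp1*, a ligand of the NK receptor NKG2D, was the 1 gene of these past the Z score threshold, with 59.22 and 21.62 (log2 ratio -1.64). Its knockout signal was close to the floor of 14.98, and another detected *Ulbp1* probe was at -0.635, short of the threshold.

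Class II genes and their partners differed among themselves in signal and in ratio. Of 11 genes, 6 were detected, 5 of them with a ratio above 0 (44.5% of all detected genes) and 2 at least 1.5-fold higher (10.3% of all). Their median log2 ratio was 0.30. With no filter on dim probes this median was -0.17. Only 5 were measured on both arrays, 4 of them above 0 (43.6% of all such genes). By probe, 5 of 9 detected were above 0 and 4 below, and the 8 measured on both arrays had a median of 0.08. *Cd74*, the invariant chain, read 49.72 on the control array and 248.1 on the knockout array (log2 ratio 2.14 ± 0.252), the highest of all members in this processing. With normexp background correction it was 1.29, below *H2-T9*, *H2-T10* and *H2-T22*. *H2-DMb1*, a chain of the peptide editor H2-M, had 40.42 and 96.21 (log2 ratio 1.07), and *H2-DMa*, the other chain, had 31.44 and 40.56 (log2 ratio 0.18 ± 0.311). *H2-Aa*, the alpha chain of I-A, was well above background in *Drp1*LiKO cells alone (3.816 and 24.94), at least 1.21-fold higher by the floor. The log2 ratio of *H2-Aa*, 0.27 ± 0.41, was 2.53 with no floor, 0.07 with normexp and 0.0 in the deposited values. *H2-Ab1*, the beta chain that pairs with *H2-Aa*, was not higher: its 4 probes had log2 ratios between -0.19 and -0.02, and the brightest read 453.3 and 458.0. *H2-Eb1* had 252.2 and 360.0 (log2 ratio 0.33). *H2-DMb2*, *H2-Ea-ps*, *H2-Eb2*, *H2-Oa* and *H2-Ob* were not well above background on either array. *H2-Ea* is inactive in the b haplotype, so I-E is not formed in C57BL/6 mice.

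Among 8 genes of class II processing outside the members, 7 had a ratio above 0, with a median of 0.19, and 1 was past the threshold. This was *Ctss*, the protease that trims the invariant chain, with 146.8 and 1697 (log2 ratio 3.35). The markers of cells that carry class II differed by cell type. Of Kupffer cells and macrophages, *Clec4f* and *Vsig4* were well above background in *Drp1*LiKO cells alone, and *Adgre1* went from 46.36 to 330.1, a log2 ratio of 2.65. The median of the 13 detected Kupffer cell and macrophage markers was 2.32, with *Timd4* not detected and *Itgam* at -0.28. Of 10 dendritic cell markers, 8 were not detected, among them *Itgax*, *Flt3* and *Zbtb46*. Of the others, *Siglech* had 26240 and 31600, and *Batf3* was well above background in *Drp1*LiKO cells alone (9.699 and 33.1). Of 7 B cell markers, 3 were not detected, *Cd79a*, *Cd79b* and *Blk*, and the unscaled summed signal of these 7 was 79.21 against 115.9. *Cr2* was well above background in *Drp1*LiKO cells alone (15.24 and 37.98), *Pax5* had 27.5 and 21.75 (log2 ratio -0.52), and 2 gave no direction. Another detected *Pax5* probe was at 0.376, so its direction depended on the probe. Of 9 T and NK cell markers, 4 were detected. By their brightest probes all were lower in *Drp1*LiKO cells, with log2 ratios between -0.55 and -0.33. Another detected probe of *Cd3e* was at 0.263. The part of these cells in the class II values, and in those of class I, which they also express, was not tested.

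Of the transactivators, *Nlrc5*, which drives class I genes, read 518.7 on the control array and 1235 on the knockout array (log2 ratio 1.07 ± 0.107), while its other probe was near background (10.15 and 17.99) and gives no direction. *Ciita*, which drives class II genes, was near background with 14.58 and 16.75 in its brightest probe, and no fold is given. Of 13 other transcription factors that act on MHC promoters and are reported here, 4 had a ratio above 0, with a median of -0.20. The highest of these, *Irf8*, a factor of myeloid cells, had 93.84 and 250.5 (log2 ratio 1.23). *Irf1*, an activator of class I and of *Tap1*, had 2021 and 2015 (log2 ratio -0.19), *Rela* -0.14 and *Nfkb1* -0.41.

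**Figure D3:**
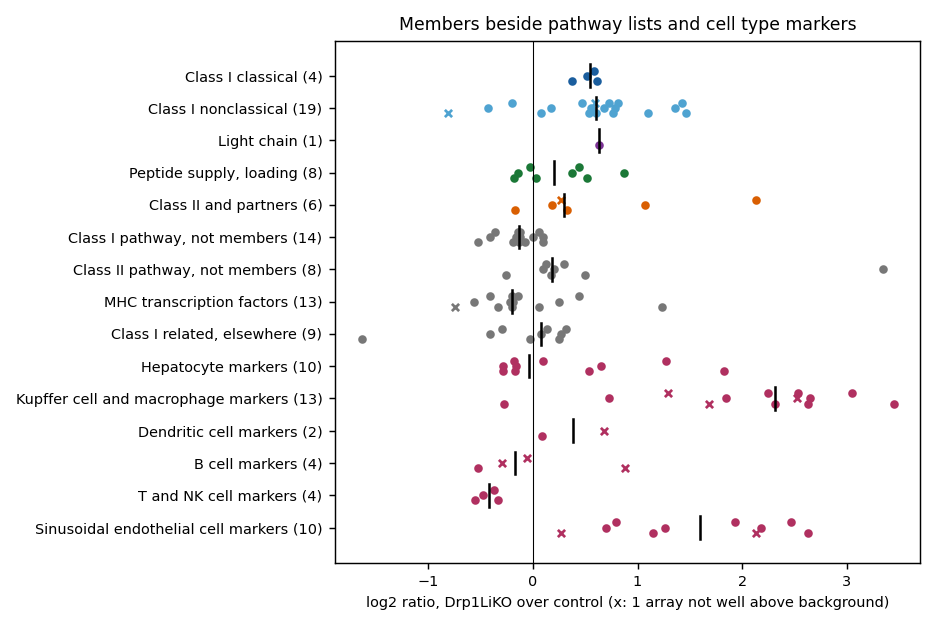
Log2 ratio of *Drp1*LiKO over control of the detected genes of each member group (colors), of pathway lists outside the members (gray) and of cell type markers (red), with black bars at the medians, crosses for bounds and the number of detected genes in parentheses. Member groups of class I sit around 0.55 to 0.63, the class I pathway list at -0.13, hepatocyte markers at -0.03 and Kupffer cell and macrophage markers at 2.32.

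Most members lie together on chromosome 17, so they were set beside their neighbors. Between the outermost member probes, chr17:34063096-37618259 of mm9, lay 45 member genes and 213 other gene names. The 33 detected members had a median log2 ratio of 0.52, with 29 above 0 and 13 at least 1.5-fold higher. Of all detected genes, 44.5% were above 0 and 10.3% at least 1.5-fold higher. On both arrays 30 of these members were measured, with 27 above 0 (43.6% of all such genes) and 12 at least 1.5-fold higher (8.43%). The 140 detected other genes had a median of -0.01, with 68 above 0 and 21 at least 1.5-fold higher. On both arrays 123 of these other genes were measured, with 60 above 0 and 17 at least 1.5-fold higher. Members outside chromosome 17 went both ways: *Cd74* on chromosome 18 was at 2.14, *B2m* on chromosome 2 and *Nlrc5* on chromosome 8 were at 0.63 and 1.07, and *Psmb10* on chromosome 8, *Psme1* on chromosome 14 and *Erap1* on chromosome 13 between -0.18 and -0.03. *Ciita*, on chromosome 16, gave no direction.

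**Figure D4:**
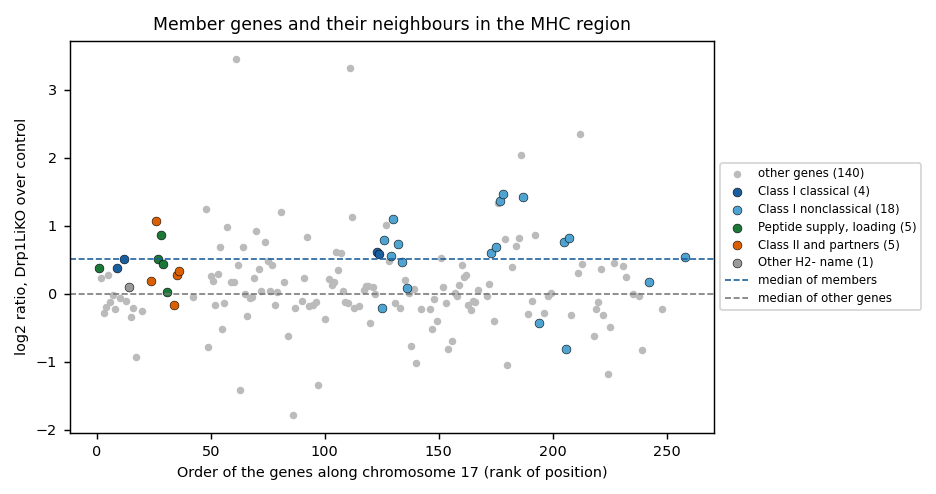
Log2 ratio of *Drp1*LiKO over control of the 33 detected member genes (colored) and the 140 detected other genes (gray) between the outermost member probes, in their order along chromosome 17, by rank and not to distance. Dashed lines mark the medians, 0.52 for members and -0.01 for the others, and the 3 highest members of this stretch lie in the T region, *H2-T22* beside *H2-T9*, and *H2-T10* farther on past 8 other gene names.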

How the data were processed

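Total RNA of control and *Drp1*LiKO primary hepatocytes was read on SurePrint G3 Mouse 60-mer Agilent arrays in 1 color, 1 array per genotype. The authors deposited 1 scanner file per array, with a background-subtracted processed intensity for each spot, made with Feature Extraction (version 10.7.1.1 in the file headers, 9.5.1.1 in the submitters' processing notes), and a table of normalized intensity, by a method not given in the sources used here. Gene names and mm9 coordinates are those of the deposited files.

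Control spots and outlier spots were left out, log2 intensity was averaged over the spots of a probe, and each array was centered on its 75th percentile. A probe was kept when either array had it well above background. A dimmer signal was set to the floor of its array, the lowest signal well above background (18.22 for control, 14.98 for *Drp1*LiKO), so such ratios are bounds, and a bound that crosses 0 has no direction. A gene was read by its brightest detected probe. The Z score used the mean (-0.008) and SD (0.652) of the log2 ratios of the 30275 kept probes. Spot noise was taken from probes printed at least 8 times. All members were accounted for, and the pathway and marker lists were counted whole, except for 2 of their genes that are not reported here, so the counts and medians of those lists leave them out. The members and lists were chosen with earlier results of these data known. Promoters came from the RefSeq table of GRCm38.p6, and probe accessions were matched to RefSeq symbols for 55 of 59 detected member probes. Precision is limited by the number of arrays. The steps were tested on a simulated *Drp1*LiKO array, made from the control array with known changes larger than those of most members. That simulation does not bear on differences of the size most members showed. Alternatives were quantile normalization, normexp with an offset of 50, spike-in scaling, the deposited normalized intensities, other filters, no floor, outlier spots kept, the median of a gene's probes, and 2 other Z scores. Python 3.11.15, numpy 2.4.6, pandas 2.3.3, matplotlib 3.10.9, R 4.3.3 and limma 3.58.1 were used.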

Additional observations from a re-analysis of the deposited data

How the results depend on the processing

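With 1 array per genotype, precision is limited by the number of arrays and, for the dim members, by signals close to background. With normexp *H2-DMb1* went from 1.07 to 0.44 and *H2-M1* from 0.82 to 0.20, both then under 1.5-fold. *H2-T24* (0.60 to 0.002) and *H2-M11* (0.77 to 0.57) also fell under it, while *H2-D1* (0.58 to 0.63) passed it. Member genes at least 1.5-fold higher were then 14, against 17 as reported. The medians of the class I groups and of peptide supply and loading kept their sign under all 9 alternatives run on them, from 0.55 to 0.67 for the classical and from 0.47 to 0.74 for the nonclassical heavy chains. The class II median, 0.30, was 0.70 with no floor and turned to -0.17 with no filter on dim probes, where 5 undetected genes enter at the floor. The median of all members was 0.30 with no filter, which moved the median of all genes to -0.46. Member genes past a Z score of 2 as higher, 4 as reported, were 2 with no floor, 8 with normexp, 8 with no filter, 12 with the robust Z score and 14 with the Z score taken in bins of signal. The probes were 5 as reported and 2, 12, 13, 18 and 19 under the same settings. The share of all genes past the Z score threshold was counted only for the processing as reported. A larger count under another setting is therefore not a stronger result about the members. Past a Z score of -2, genes were 0 as reported and 1 each with no floor and the robust Z score. Probes were 1 as reported, 0 with normexp, with the deposited values and on both arrays, and 2 with no floor and with the robust Z score. Genes at least 1.5-fold lower were 1 as reported, 0 with normexp and on both arrays, and 2 with the median of a gene's probes, and probes were 2 as reported, 1 with normexp and 0 on both arrays. The causes were not tested. Across probes, which are not independent replicates, the deposited *Drp1*LiKO values ranked with a correlation of 0.993 against its array. For the deposited values both columns shared 1 detection limit, a choice made after seeing the data. In it 10 of 41 member genes moved beyond spot noise, and *Tap2* (to -1.12) and *Psme1* changed sign. *Psme1* also changed sign with normexp and with spike-in scaling. No paired analysis was possible because each genotype has 1 array.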

Other observations

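Between *H2-T24* and *H2-T3* lay 16 other gene names, of which 11 were detected, 7 with a ratio above 0, 3 below and 1 with no direction. At least 1.5-fold higher were 6 of them (10.3% of all detected genes) and 1 was as far lower (10.2% of all). This tally and the genes named were chosen after their values were seen. *A930015D03Rik*, next to *H2-T22*, had a log2 ratio of 1.33, *Gm8909* 0.86, *C920025E04Rik* 0.82 and *Gm11127* 0.81. *BC023719*, next to *H2-T10*, was not well above background in control, and was at least 4.105-fold higher in *Drp1*LiKO cells. *Gm6034*, between *H2-T9* and *H2-T10*, had -1.04 and *BC030333* -0.40. The probes of *C920025E04Rik* and *Gm11127* share runs of at least 20 bases with probes of *H2-T23*, so these values are not certain to be separate from it. Elsewhere between the outermost members, the highest were *Tnxb* at 3.46, well above background on only 1 array, and *Aif1*, a gene of macrophages, at 3.32. *Lst1*, near *Aif1*, had -0.21.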
